A study of Rattus norvegicus with 9 samples.

Results

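Silencing of Lhx4 was compared with a non-targeting siRNA in cultured pinealocytes, the cells of the rat pineal gland that make melatonin. The comparison covers every gene of the table in which the authors set 3 siLhx4 libraries against 3 siNT libraries. That table lists 26854 genes, and 14876 of them carry an adjusted p. Values for each library were analysed for 14 genes that the authors chose. In the whole series there were 9 libraries in 3 groups, the remaining group having received an siRNA against the homeodomain gene Bsx (siBsx). All cells came from pineal glands of adult Sprague-Dawley rats, were freed with papain, grown in DMEM with serum, and given siRNA by lipid transfection at 40 nM, siNT for the controls. Medium was replaced at 24 h, and the harvest was on day 3. Each target had 1 siRNA, so effects of its sequence and of the lower target cannot be told apart. The labels name triplicates without saying whether they came from separate cultures or animals, so p-values measure the spread between these libraries, which may be technical. The labels do not give the time of day or any adrenergic stimulation.

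Lhx4 encodes a LIM-homeodomain transcription factor. Proteins of this class bind DNA sites with the core TAAT, read as ATTA on the other strand, through their homeodomain, and recruit LIM cofactors through their LIM domains. Lhx4 is known from pituitary and motor neuron development and is also expressed in the mature pineal gland. Pinealocytes are neuroendocrine cells that share much of their gene expression with retinal photoreceptors. They release melatonin at night under noradrenergic control through cyclic AMP and calcium.

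In the authors' table, 2626 genes passed a DESeq2 adjusted p of 0.05, which was 17.7% of those tested. Of these, 1200 (8.07% of those tested) were higher and 1426 (9.59%) were lower with siLhx4. The changes were mostly small. The quartiles of the log2 fold change over tested genes were -0.14 and 0.15, and 65 called genes rose and 57 fell by at least 2-fold. The median of all tested genes was 0.003 on the log2 scale. These calls rest on a normal reference and on standard errors for which DESeq2 shares spread across genes. When the same statistics were referred to a t distribution with 4 degrees of freedom, 0 genes passed adjustment and 2397 had an unadjusted p under 0.05. The silenced Lhx4 did not pass there either, but its DESeq2 p-value entered as listed, at 1e-200, which caps its statistic. Its failure to pass is therefore no check of this setting. With 0 genes past adjustment, the setting names no changed gene and does not show that none changed. In what follows, rose and fell are used only for genes past that adjusted p, each value is a log2 fold change of siLhx4 over siNT with its standard error (SE), and means are normalized counts over both groups, that is, read counts scaled by each library's size factor.

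A few promoters are shown here because their genes were among the 25 largest changes in either direction and because they held the homeodomain core most often. Of those 50 leading genes, 39 had a promoter in RefSeq (build GRCr8, from 250 bases before to 50 bases after the transcription start), and the 4 with at least 4 matches to TAAT on either strand are printed, with TAAT and ATTA in capitals and overlapping matches counted separately. All 4 belong to genes that fell: the stromelysin Mmp3 (6 matches, chr8:12925031-12925330, plus strand), the cyclic AMP-regulated phosphoprotein Arpp21 (5 matches, chr8:121031308-121031607, minus strand), neuroglobin, Ngb (4 matches, chr6:112480737-112481036, minus strand), and the guanylate cyclase Gucy2d (4 matches, chr10:54472849-54473148, minus strand). In RefSeq, Gucy2d is the photoreceptor enzyme, but its symbol and that of the olfactory enzyme Gucy2e have been used for each other, so the gene behind the symbol in the authors' table depends on their annotation, which the sources used here do not give. The promoter of Pde1a, which rose, held 3 matches, just under this cut. The cut picked these 4 promoters, so their shared direction does not tie TAAT to falls. Sequences run 5′ to 3′ in the direction of transcription.
Mmp3: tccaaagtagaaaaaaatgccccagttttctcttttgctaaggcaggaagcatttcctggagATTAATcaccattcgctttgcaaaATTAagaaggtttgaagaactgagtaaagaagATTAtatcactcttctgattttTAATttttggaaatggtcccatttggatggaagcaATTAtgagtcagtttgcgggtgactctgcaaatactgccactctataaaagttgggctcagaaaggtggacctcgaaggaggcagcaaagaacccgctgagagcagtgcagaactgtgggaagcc
Arpp21: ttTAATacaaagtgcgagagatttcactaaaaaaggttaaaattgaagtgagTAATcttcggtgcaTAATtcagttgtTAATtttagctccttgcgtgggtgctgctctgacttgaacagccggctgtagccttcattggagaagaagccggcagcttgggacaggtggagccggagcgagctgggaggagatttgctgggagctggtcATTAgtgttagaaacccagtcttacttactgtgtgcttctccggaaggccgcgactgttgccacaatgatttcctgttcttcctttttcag
Ngb: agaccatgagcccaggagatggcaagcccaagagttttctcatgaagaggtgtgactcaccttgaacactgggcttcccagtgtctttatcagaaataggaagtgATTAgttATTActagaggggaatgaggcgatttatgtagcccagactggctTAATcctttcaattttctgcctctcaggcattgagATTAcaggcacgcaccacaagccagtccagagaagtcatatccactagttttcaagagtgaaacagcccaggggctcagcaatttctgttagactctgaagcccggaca
Gucy2d: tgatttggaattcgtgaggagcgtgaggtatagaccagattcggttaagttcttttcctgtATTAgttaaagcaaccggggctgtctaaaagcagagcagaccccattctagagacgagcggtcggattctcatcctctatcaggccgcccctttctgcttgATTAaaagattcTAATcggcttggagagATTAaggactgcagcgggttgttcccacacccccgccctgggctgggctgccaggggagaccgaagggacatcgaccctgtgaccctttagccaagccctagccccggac

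These letters were not more common in the promoters of called genes. TAAT on either strand was present in 41.8% of the promoters of 9724 tested genes with a RefSeq entry (95% Wilson interval 40.8 to 42.8), in 39.8% of 1044 promoters of genes that fell (36.9 to 42.8) and in 38.7% of 856 promoters of genes that rose (35.5 to 42). The longer palindromic site TAATTA, which LIM-homeodomain proteins favour, was present in 1.98% of all, 1.53% of lower and 2.1% of higher genes' promoters. Among genes called with a change of at least 2-fold, TAAT was present in 37.8% of 37 lower genes' promoters (24.1 to 53.9). It was present in 34.1% of 41 higher genes' promoters (21.6 to 49.5). None of the 39 leading promoters held TAATTA, and 23 of them, of genes in both directions, held no TAAT. A match describes the sequence of this window and does not show binding.

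The targeted transcript was the most strongly lowered gene with a symbol. Lhx4 had 18963, 18331 and 19156 normalized counts in the 3 siNT libraries and 3420, 3634 and 3551 in the 3 siLhx4 libraries. The groups were far apart, and the siLhx4 libraries averaged 18.8% ± 0.574 of the control level (SD, n = 3). All 14 genes with values per library had groups that did not overlap, 12 of them lower and 2 higher with siLhx4, against 17.7% of all tested genes called. A two-sided exact permutation test gave p = 0.1 for each of the 14, and no smaller p is possible with 3 libraries against 3. The authors picked these genes, mostly from the melatonin pathway and phototransduction, so their share is not that of genes in general.

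After Lhx4 the largest fall among them was that of Gucy2d, whose promoter is shown above. Gucy2d had 855, 920 and 859 normalized counts with siNT and 418, 407 and 380 with siLhx4, which is 45.7% ± 2.25 of the siNT mean (SD, n = 3). Its 3 siLhx4 libraries lay close together and well below every siNT library. The calcium sensor recoverin, Rcvrn, had 518, 580 and 504 normalized counts with siNT and 334, 263 and 389 with siLhx4, or 61.6% ± 11.8 (SD, n = 3). Rcvrn was the most variable of the 14 genes, and siLhx4 replicate 3 stood nearest to the controls. Leaving out 1 library moved its log2 difference by at most 0.15, the largest such shift among the 14.

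The other phototransduction genes with values per library that were lower kept a larger share of the control level. Cone transducin, Gnat2, had 10615, 9514 and 10839 normalized counts with siNT and 6938, 6748 and 7194 with siLhx4 (67.4% ± 2.17 of the siNT mean, SD, n = 3). Rhodopsin kinase, Grk1, had 4916, 4780 and 4941 with siNT and 3270, 3470 and 3379 with siLhx4 (69.1% ± 2.06, SD, n = 3). In both genes the lowest control lay above the highest knockdown library. The rod phosphodiesterase subunit Pde6b had 3615, 3211 and 3733 normalized counts with siNT against 2444, 2386 and 2661 with siLhx4 (71% ± 4.13, SD, n = 3). Cngb1, a subunit of the rod cation channel, had 8332, 7302 and 8641 against 5932, 6165 and 6098 (75% ± 1.48, SD, n = 3). For these genes siNT replicate 2 was the lowest control, and it still lay above all siLhx4 libraries. The rod sodium, calcium and potassium exchanger Slc24a1 had 3572, 3841 and 3528 normalized counts with siNT and 2640, 3210 and 2646 with siLhx4 (77.7% ± 8.98, SD, n = 3). Here siLhx4 replicate 2 stood apart from the other siLhx4 libraries, closer to the controls.

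The enzymes of melatonin synthesis fell to similar shares. Aanat, which acetylates serotonin, had 19571, 18472 and 16916 normalized counts with siNT and 12707, 11733 and 12377 with siLhx4 (67% ± 2.7 of the siNT mean, SD, n = 3). Tph1, the first enzyme of the pathway, had 435248, 460953 and 470227 with siNT and 335132, 352374 and 356969 with siLhx4 (76.4% ± 2.53, SD, n = 3). Asmt, the last enzyme, had 10212, 9545 and 10329 with siNT and 7759, 7931 and 7657 with siLhx4 (77.6% ± 1.38, SD, n = 3). Each control library was above each knockdown library for all 3 enzymes.

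Guca1b, which activates photoreceptor guanylate cyclase at low calcium, went the other way. Guca1b had 14237, 14865 and 14120 normalized counts with siNT and 17656, 18640 and 18199 with siLhx4 (126% ± 3.42, SD, n = 3), so every knockdown library lay above every control, while Gucy2d fell. The calmodulin gene Calm3 was lower, with 4683, 4574 and 4383 normalized counts with siNT and 3512, 3703 and 3404 with siLhx4 (77.8% ± 3.33, SD, n = 3). Because calmodulin genes resemble one another and the handling of reads matching several genes is not given in the sources used here, the value of Calm3 is uncertain in that respect.

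**Figure D1:**
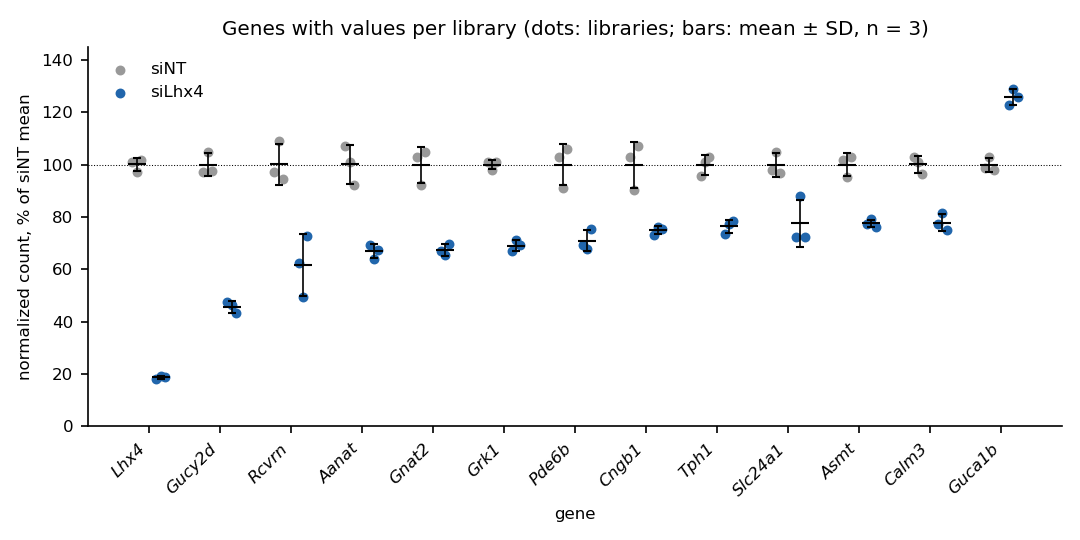
Normalized counts of genes with values per library, as percent of the siNT mean (y axis), by gene (x axis); dots are libraries, bars the mean ± SD of 3. The siLhx4 dots of 12 genes lie below all siNT dots, from Lhx4 at 18.8% to Calm3 at 77.8%, and those of Guca1b lie above them.

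How many genes were called depended on how strongly they were expressed. Among tested genes with a mean under 50 normalized counts 2.45% were called, between 300 and 1000 15.3%, and from 10000 upwards 38.4%. The median SE fell from 0.45 to 0.05 (log2) over the same range, and the median size of a called change fell from 1.48 to 0.25. The balance of directions also differed with expression. From 100 to 300 normalized counts 6.69% rose and 3.36% fell, whereas from 10000 upwards 12.7% rose and 25.7% fell. The gene lists below differ in expression, and their counts of rises and falls were not adjusted for it. The median mean was 203 normalized counts for Wnt and 278 for fibroblast growth factor genes, which held mostly rises. It was 2122 for nuclear transport and 4298 for tricarboxylic acid cycle genes, which held mostly falls. Potassium channels (220, mostly falls) and hypoxia-induced genes (1496, mostly rises) went the other way.

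**Figure D2:**
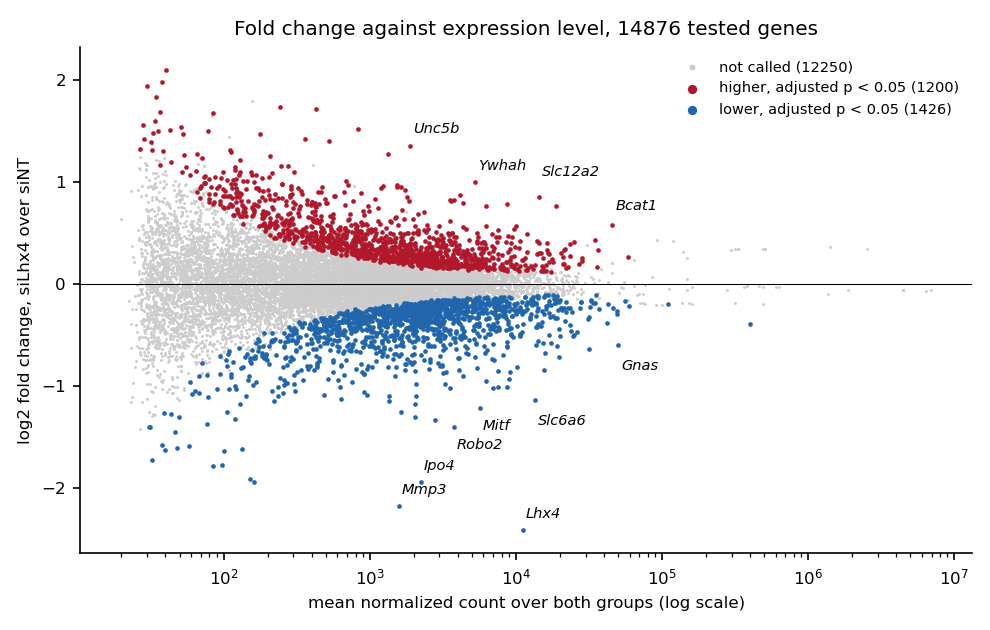
Log2 fold change of siLhx4 over siNT (y axis) against the mean normalized count over both groups (x axis, log scale) for 14876 tested genes; red and blue points are the 1200 higher and 1426 lower genes. Lhx4, Mmp3, Ipo4, Robo2, Mitf and Slc6a6 are labelled among the genes that fell, and changes of low genes had to be larger to be called.

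Beyond the extreme changes, the genes next in size had diverse roles. The authors' deposited table shows that the netrin receptor Unc5b rose by 1.35 ± 0.082 (DESeq2 adjusted p = 1.58e-58) and the chemokine Cxcl14 by 1.28 ± 0.11 (DESeq2 adjusted p = 1.61e-31). The urea cycle enzyme Ass1, and the collagen and elastin crosslinking enzyme Lox rose by 1.26 ± 0.21 and 1.15 ± 0.21 there, and the protease-activated receptor F2rl1 rose 2.23-fold. These genes had means between 208 and 1879 normalized counts. The ferritin receptor Scara5, the histone reader Zcwpw1, the sulfatase Arsi, caveolin Cav1 and the adhesion receptor Adgrg1 rose by 1.12 to 1.31 in the authors' deposited table. Inpp5j, an inositol phosphatase, the calmodulin-dependent phosphodiesterase Pde1a, the imprinted gene Magel2, the homeodomain gene En1 and the Myc relative Mycl rose by 1.10 to 1.27, all with means under 100, and En1 only just passed (DESeq2 adjusted p = 0.0488, taken from the authors' deposited table).

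Among the falls of like size, several came from well-expressed genes. The slit receptor Robo2 fell 2.63-fold (SE 0.081 on the log2 scale, DESeq2 adjusted p = 7.69e-63) and its ligand gene Slit3 2.5-fold (log2 SE 0.24) in the authors' deposited table. Prkar2b, a regulatory subunit of protein kinase A, fell by 1.34 ± 0.078 (DESeq2 adjusted p = 4.92e-62), and the lysosomal peptidase Tpp1 by 1.30 ± 0.084. The LIM-homeodomain gene Isl2 (-1.25 ± 0.075) and Mitf (-1.21 ± 0.083), a basic helix-loop-helix factor of melanocytes and retinal pigment epithelium, fell in the authors' deposited table. Gfod1 (-1.14 ± 0.073), the mitochondrial carrier Slc25a48 (-1.15 ± 0.19) and Ribc2 (-1.10 ± 0.17), a protein of ciliary microtubules, also fell there. Hs3st6 (-1.37 ± 0.35), which sulfates heparan chains, Btnl8 (-1.25 ± 0.35) and Apold1 (-1.09 ± 0.31) fell in the authors' deposited table at means of 76.8 to 143 normalized counts.

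At means of 5000 normalized counts or more, the largest rise that the authors' deposited table listed was that of Ywhah, the 14-3-3 eta adaptor, at 1.00 ± 0.056 (DESeq2 adjusted p = 9.4e-67). The sodium, potassium and chloride cotransporter Slc12a2 rose by 0.85 ± 0.062, the heparan sulfate editing enzyme Sulf2 by 0.78 ± 0.049, the opioid precursor Penk by 0.77 ± 0.15 and the cadherin-like calsyntenin Clstn1 by 0.77 ± 0.048 there. Bcat1, the cytosolic transaminase of branched-chain amino acids, rose by 0.58 ± 0.049 at a mean of 45610.1 normalized counts, and Olfm1 and Map2 by 0.57 each (SE 0.058 for both) in the authors' deposited table. The largest falls at this level, after Lhx4 and Mitf, were those of the taurine transporter Slc6a6 (-1.13 ± 0.044, DESeq2 adjusted p = 1.57e-144), the import receptor Kpnb1 (-1.01 ± 0.043, DESeq2 adjusted p = 7.78e-121), Lix1 (-0.95 ± 0.064) and the calcium sensor of vesicle release Syt1 (-0.93 ± 0.057) in the authors' deposited table. The other 2 genes of this group, Cd300lb and Fyb, are described with the leukocyte-associated genes.

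Some genes best known from leukocytes fell, in cultures where microglia markers were scarce. They are grouped here after their values were seen. As the authors' deposited table shows, the leukocyte integrin chain Itgb2 fell by 1.17 ± 0.083, the actin-bundling plastin Lcp1 by 1.10 ± 0.090, the adaptor Fyb by 1.01 ± 0.055 and the receptor Cd300lb by 1.02 ± 0.065, at means of 2039, 1358, 7559 and 6998 normalized counts. Of 8 microglia markers, Cx3cr1, C1qa, C1qb, C1qc, Aif1 and Tyrobp had no adjusted p, Csf1r and Ptprc were tested and neither was called by DESeq2 or had an unadjusted p under 0.05, and the markers' means ran from 1.59 to 201. Their summed level, derived from the authors' mean and fold change, was 313 normalized counts with siNT and 272 with siLhx4.

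Genes of other cell types moved as well, and they bear on the gene families that follow. Of fibroblast markers 4 of 8 tested rose and none fell (0 lower at an unadjusted p under 0.05), with a summed level of 5419 normalized counts with siNT and 7114 with siLhx4, and Lum and Thy1 had no adjusted p. Of astrocyte markers 3 of 7 tested rose (11593 and 14723 summed), namely Vim, Apoe and Sox9, while 3 of 7 lay below 0, the median was 0.07 and the defining Gfap and Aqp4 had no adjusted p. Of mural cell markers 1 of 5 tested rose (7091 and 9917 summed), and that one, Myh11, made up most of the sum with a mean of 7566 normalized counts. The counts were 1 of 7 for endothelial markers (896 and 1246 summed) and 2 of 6 for Schwann cell markers (1441 and 1792 summed). Of pinealocyte markers 4 of 8 fell and none rose (1 higher at an unadjusted p under 0.05), with a summed level of 546895 with siNT and 429173 with siLhx4. Tph1 alone gave 455476 and 348158 of these sums, as means of its 3 libraries. In bulk RNA, fewer cells of a type and less RNA per cell cannot be told apart, and the part of these markers in the results below was not tested.

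Growth factor pathways held many higher genes. Transforming growth factor-β (TGF-β) and bone morphogenetic protein genes signal through receptor kinases to SMAD factors. Of 69 such genes listed, 50 were tested, 16 rose and 4 fell, with a median of 0.19 against 0.003 over all tested genes. The ligands Tgfb1 and Tgfb3 rose by 0.73 ± 0.095 and 0.81 ± 0.12 in the authors' deposited table, and the secreted Fstl1 and the induced matrix protein Tgfbi by 0.95 ± 0.096 and 0.90 ± 0.11. The receptors Tgfbr1 (0.26 ± 0.074) and Tgfbr2 (0.83 ± 0.14), the inhibitory factors Smad6 (0.69 ± 0.25) and Smad7 (0.62 ± 0.10) and the decoy receptor Bambi (0.81 ± 0.21) also rose there. The members that fell in the authors' deposited table were the stress-induced cytokine Gdf15 (-0.39 ± 0.060), the receptor Acvr1 (-0.27 ± 0.050), the ubiquitin ligase Smurf2 (-0.31 ± 0.076) and Gdf7 (-0.32 ± 0.080).

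Of 33 tested genes of fibroblast growth factor signalling (48 listed), 10 rose and 1 fell, with a median of 0.25. The higher genes in the authors' deposited table included Etv1 (1.10 ± 0.25), a transcription factor downstream of the receptors, the feedback phosphatase Dusp6 (0.55 ± 0.11) and the feedback inhibitor Spry4 (0.64 ± 0.19). The ligand Fgf1 fell by 0.45 ± 0.056 there (DESeq2 adjusted p = 6.6e-14), at a mean of 5209 normalized counts. Feedback genes of the pathway were thus higher beside a lower ligand transcript.

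Of 39 tested Wnt pathway genes (64 listed), 8 rose and none fell by DESeq2 (1 lower at an unadjusted p under 0.05), with a median of 0.17. They included the co-receptors Lrp5 (0.44 ± 0.089) and Lrp6 (0.17 ± 0.053), the frizzled receptors Fzd7 (0.84 ± 0.17) and Fzd8 (0.80 ± 0.17) and the feedback inhibitors Nkd1 (0.80 ± 0.13) and Nkd2 (0.77 ± 0.28) in the authors' deposited table. Of 21 tested Notch pathway genes (28 listed), 7 rose and 2 fell. The ligand Jag1 rose by 0.52 ± 0.065, the DNA-binding factor Rbpj by 0.43 ± 0.070 and the target Hes1 by 0.45 ± 0.14 in the authors' deposited table. The sugar-adding enzyme Mfng and the inhibitor Numbl fell there, by 0.66 ± 0.10 and 0.25 ± 0.075, while Lfng, an enzyme of the Mfng family, rose by 0.68 ± 0.24.

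Other receptor pathways were mixed. Of 29 tested insulin and insulin-like growth factor genes, 5 rose and 8 fell. In the authors' deposited table the adaptors Irs1 (-0.45 ± 0.055) and Irs2 (-0.27 ± 0.044) fell, while Pik3ca (0.32 ± 0.064) and the binding protein Igfbp5 (0.45 ± 0.11) rose. Of 15 epidermal growth factor and neuregulin genes 2 rose and 2 fell, with the ligand Tgfa higher (1.02 ± 0.28) and the receptors Erbb2 (-0.37 ± 0.11) and Erbb4 (-0.34 ± 0.12) lower in the authors' deposited table. Of 12 tested neurotrophin and GDNF family genes, 1 rose and 2 fell, the latter being Ntf3 and Gfra2. Of 25 Hedgehog and Hippo genes 2 rose and 3 fell, among them the effector Gli2 (0.42 ± 0.059) and the Hedgehog-binding inhibitor Hhip (-0.73 ± 0.23) in the authors' deposited table.

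**Figure D3:**
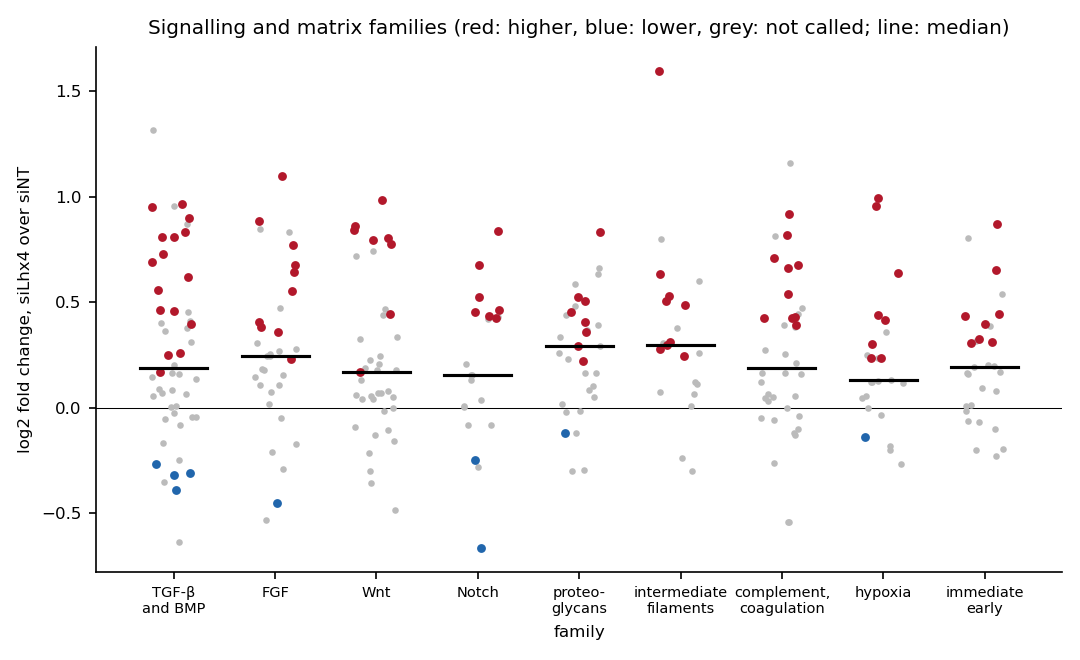
Log2 fold changes of siLhx4 over siNT (y axis) for the tested members of 9 families (x axis); each dot is a gene, red higher, blue lower, grey not called, and the line is the family's median. Medians lie above 0 in every family shown, between 0.13 for hypoxia-induced genes and 0.30 for intermediate filaments.

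Proteoglycans and intermediate filaments also held more rises than falls. Of 31 tested proteoglycans and matricellular proteins 8 rose and 1 fell, with a median of 0.29. Syndecan Sdc1 (0.83 ± 0.10), Spock2 (0.51 ± 0.078) and the matricellular Cyr61 (0.52 ± 0.12) rose, and syndecan Sdc4 fell slightly (-0.12 ± 0.039) in the authors' deposited table. Of 21 tested intermediate filament genes 9 rose and none fell (1 lower at an unadjusted p under 0.05), with a median of 0.30. Vimentin, Vim (0.50 ± 0.080), the keratins Krt15 (0.53 ± 0.095) and Krt19 (0.30 ± 0.048) and the neurofilament Nefh (0.63 ± 0.10) rose in the authors' deposited table. The list thus joined filament genes of mesenchymal, epithelial and neuronal cells. The summed fibroblast, mural and astrocyte markers were higher with siLhx4 over the same comparison, as given above, and Vim is on the astrocyte list too. Of other cytoskeletal families, the actin, myosin and contractile genes held 6 rises and 9 falls among 52, and the ankyrin, spectrin and scaffold genes 5 rises and 10 falls among 45.

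Collagens went both ways, with 4 of 35 tested higher and 4 lower. Col6a1 (0.79 ± 0.16), Col6a2 (0.97 ± 0.13) and Col16a1 (0.86 ± 0.12) rose in the authors' deposited table, whereas Col8a1 (-0.70 ± 0.043, mean 8135 normalized counts) and the basement membrane chains Col4a4 (-0.52 ± 0.085) and Col4a5 (-0.33 ± 0.12) fell. Col6a1 and Col6a2 are themselves fibroblast markers of the list above. Of 46 tested metalloproteinases and inhibitors 3 rose and 5 fell. Besides Mmp3, Mmp10 (-1.09 ± 0.17), Mmp15 (-0.69 ± 0.074) and Adam12 (-0.79 ± 0.13) fell, while the membrane-bound Mmp14 (0.43 ± 0.059) and the inhibitor Timp1 (0.59 ± 0.17) rose in the authors' deposited table. Laminin, basement membrane and elastic fibre genes held 4 rises and 1 fall among 18 tested. The rises were those of Fbn1 (0.94 ± 0.11), Fbln2 (0.50 ± 0.060), Nid2 and elastin, Eln (DESeq2 adjusted p = 0.0198), and the fall that of the laminin chain Lama2 (-0.29 ± 0.085), in the authors' deposited table.

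Cell adhesion families held both rises and falls. Of 30 tested cadherins and catenins 7 rose and 5 fell. N-cadherin, Cdh2, fell by 0.34 ± 0.049 at a mean of 12593 normalized counts, while Cdh6 (0.88 ± 0.17) and the giant cadherin Fat4 (0.56 ± 0.12) rose in the authors' deposited table. Of 39 tested protocadherins 7 rose and 3 fell. The non-clustered Pcdh17 (0.90 ± 0.14), Pcdh10 (1.06 ± 0.22) and Pcdh8 (0.98 ± 0.25) rose, and Pcdh1 (-0.34 ± 0.066) and the clustered Pcdhgb7 (-0.35 ± 0.11) fell in the authors' deposited table, where values of clustered members are uncertain because they share exons. Of 37 immunoglobulin adhesion genes 6 rose and 10 fell. Igsf3 (0.96 ± 0.083) rose, and contactin Cntn1 (-0.50 ± 0.052, mean 16882) and neurofascin Nfasc (-0.76 ± 0.12) fell in the authors' deposited table.

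Tight junction and polarity genes leaned to falls, with 1 of 21 tested higher and 6 lower and a median of -0.17. The scaffold Tjp1 rose by 0.35 ± 0.042 in the authors' deposited table, while its relative Tjp3 fell by 0.43 ± 0.12 and the polarity gene Pard3 by 0.32 ± 0.067. Integrins and their linkers held 6 rises and 4 falls among 26, with Itgb1 (0.25 ± 0.060) and Itga6 (0.55 ± 0.13) higher and the talins Tln1 (-0.17 ± 0.047) and Tln2 (-0.18 ± 0.050) lower in the authors' deposited table.

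Axon guidance families held receptors that changed in opposite directions. Of 18 tested netrin, slit and receptor genes 4 rose and 2 fell. Robo2 and Slit3 fell as described, while Robo1 rose by 0.56 ± 0.17 and the netrin-like Ntng2 by 0.34 ± 0.062 in the authors' deposited table. Of 28 semaphorins, plexins and neuropilins 5 rose and 3 fell. Sema3a (-0.46 ± 0.091) fell and Sema3f (0.34 ± 0.086) rose, and the plexin receptors Plxna3 (-0.80 ± 0.17) and Plxna1 (0.27 ± 0.068) likewise differed in the authors' deposited table. Of 16 ephrins and Eph receptors 4 rose and 2 fell, with Epha4 (-0.27 ± 0.092) and Epha5 (-0.52 ± 0.16) lower and Ephb1 (0.70 ± 0.21) higher there.

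Potassium and calcium channel genes fell more often than they rose. Of 96 potassium channel and related genes listed, 45 were tested, 2 rose and 9 fell. In the authors' deposited table the lower genes included Kcnh6 (-0.72 ± 0.056, DESeq2 adjusted p = 9.89e-35), the pacemaker channel Hcn2 (-0.63 ± 0.056), the calcium-activated Kcnma1 (-0.69 ± 0.11) and the inward rectifier Kcnj14 (-0.52 ± 0.056). The leak channel Kcnk10 (1.08 ± 0.25) and Kcnh2 (0.41 ± 0.12), a relative of Kcnh6, rose there. Of 17 tested voltage-gated calcium channel genes 2 rose and 6 fell, with a median of -0.20. The L-type Cacna1c (-0.51 ± 0.090) and the T-type Cacna1g (-0.49 ± 0.091) fell, whereas the T-type Cacna1i rose by 0.51 ± 0.095 in the authors' deposited table. The auxiliary subunits Cacna2d3 and Cacna2d4 fell by 0.66 ± 0.12 and 0.49 ± 0.10, and Cacna2d1 rose by 0.27 ± 0.088 there.

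Chloride channel genes split within a single channel complex. Volume-regulated anion channels are built from LRRC8 subunits. In the authors' deposited table Lrrc8b fell by 0.75 ± 0.050 (DESeq2 adjusted p = 1.97e-48) at a mean of 7066 normalized counts, while Lrrc8a, the obligatory subunit, rose by 0.41 ± 0.058 and Lrrc8c by 0.61 ± 0.13. The nicotinic receptor subunit Chrnb4 (-0.51 ± 0.055, mean 19969) and the connexin Gjd2 of electrical synapses (-0.86 ± 0.078) fell, and the metabotropic glutamate receptor Grm4 rose by 1.07 ± 0.23 in the authors' deposited table.

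Secretory genes held more falls than rises, where 9.59% of all tested genes fell and 8.07% rose. Of 62 tested synaptotagmins, SNAREs and their partners 3 rose and 10 (16.1%) fell. Beside Syt1, the complexins Cplx4 (-0.82 ± 0.065) and Cplx3 (-0.39 ± 0.064) and the priming factor Unc13b (-0.73 ± 0.059) fell in the authors' deposited table. Of 14 granins and processing genes 3 fell, namely Scg3 (-0.61 ± 0.045), Scg2 (-0.79 ± 0.081) and Chga (-0.24 ± 0.051), and the convertase Pcsk2 rose by 0.94 ± 0.26 in the authors' deposited table. Of 61 kinesin, dynein and dynactin genes 1 rose and 7 fell, among them the transport motor Kif5c (-0.81 ± 0.085) there. The share of falls in this list, 11.5%, was near that over all tested genes. It lay below the 14.6% of genes with means of 1000 to 3000 normalized counts, the range of the list's median. Of 45 ankyrins, spectrins and scaffolds 5 rose and 10 fell. Of neuropeptides and their receptors, 6 of 25 tested were higher and 1 was lower, with Penk and the neurotensin receptor Ntsr1 (0.93 ± 0.18) among the rises and the receptor Vipr1 (-0.61 ± 0.19) as the fall there.

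Genes of cyclic AMP and calcium signalling, the route by which noradrenaline acts on the gland, changed at several steps. The stimulatory G-protein gene Gnas fell by 0.60 ± 0.049 at a mean of 50205 normalized counts (DESeq2 adjusted p = 1.65e-31, taken from the authors' deposited table). Of 44 protein kinase A, anchoring protein and adenylyl cyclase genes 7 rose and 7 fell. Both type II regulatory subunits fell, Prkar2b as above and Prkar2a by 0.64 ± 0.055, whereas the type I subunit Prkar1a rose by 0.14 ± 0.048 in the authors' deposited table. The cyclase Adcy1 rose (0.37 ± 0.081) and Adcy2 fell (-0.50 ± 0.11) there. Of 22 tested phosphodiesterases 3 rose and 6 fell, and Pde4b, which degrades cyclic AMP, fell by 0.86 ± 0.064 (DESeq2 adjusted p = 3.94e-38, taken from the authors' deposited table). Protein kinase C and phospholipase C genes held 1 rise and 6 falls among 40, including Prkca (-0.51 ± 0.057), the store sensor Stim2 (-0.41 ± 0.050) and the calcium release channel Itpr1 (-0.44 ± 0.060) in the authors' deposited table. The regulator of G-protein signalling Rgs2 fell by 0.73 ± 0.090 there, and 3 of 19 genes of its family fell while none rose (2 higher at an unadjusted p under 0.05).

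Of 71 mitogen-activated protein kinase pathway genes 4 rose and 12 fell. The neuronal kinase Mapk10 fell by 1.01 ± 0.13 in the authors' deposited table, while its relative Mapk8 rose by 0.23 ± 0.074. Map4k5 fell by 0.60 ± 0.069 and Map4k4 rose by 0.29 ± 0.051 there. These kinases were named as leading members in each direction, and how often related genes differed was not counted.

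**Figure D4:**
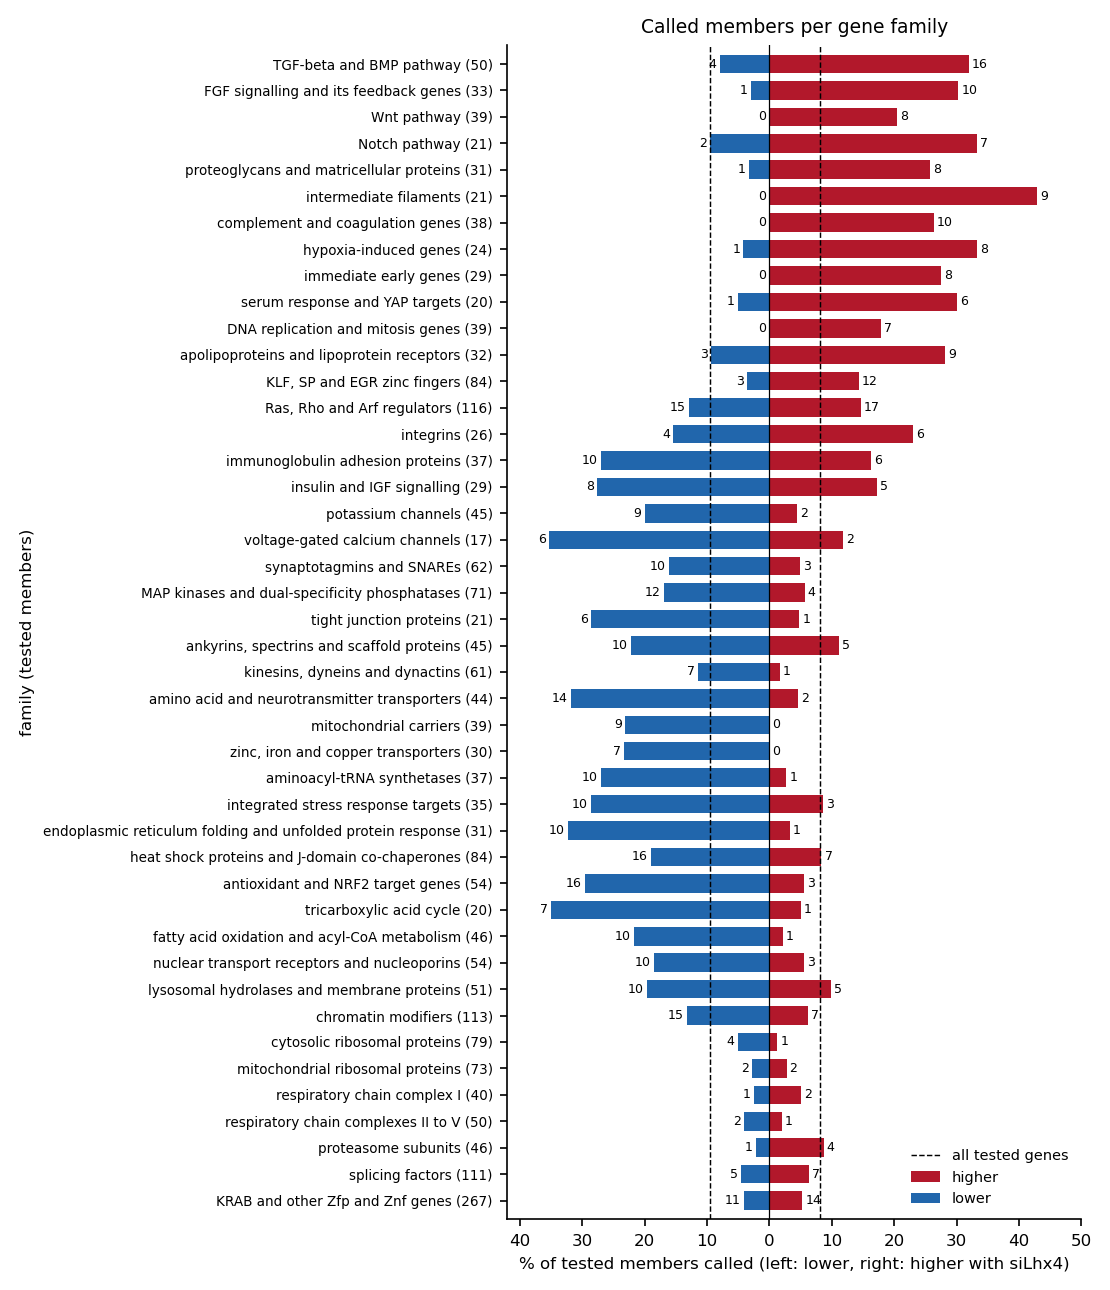
Percent of tested members called lower (left, blue) and higher (right, red) with siLhx4 (x axis) in the gene families named (y axis, tested members in brackets), with the count at each bar. Dashed lines mark the shares over all tested genes, 9.59% lower and 8.07% higher.

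Transporters of amino acids, of metals and of mitochondria fell more often than they rose. Of 44 tested amino acid and neurotransmitter transporters (73 listed) 2 rose and 14 fell, with a median of -0.14. Beside Slc6a6, the glycine transporter Slc6a9 (-0.61 ± 0.076), the cationic amino acid transporter Slc7a1 (-0.50 ± 0.084) and the glutamine transporter Slc38a3 (-0.41 ± 0.067) fell in the authors' deposited table. Of 39 tested mitochondrial carriers (48 listed) 9 fell and none rose (0 higher at an unadjusted p under 0.05), including the pyrimidine nucleotide carrier Slc25a33 (-0.36 ± 0.060) and the ADP and ATP exchanger Slc25a5 (-0.24 ± 0.052) there. Of 30 tested zinc, iron and copper genes 7 fell and none rose (2 higher at an unadjusted p under 0.05), with the zinc importers Slc39a4 (-0.42 ± 0.067) and Slc39a8 (-0.43 ± 0.069) among them in the authors' deposited table. Sugar and monocarboxylate transporters held 1 rise and 3 falls among 22, and ion-coupled cotransporters 3 rises and 5 falls among 32. The remaining transporter lists did not lean this way, with 4 rises and 3 falls among 33 ABC transporters and 2 rises and 1 fall among 19 organic ion and nucleoside transporters. Apart from Slc6a6 and Slc25a48, the members named here fell by less than 2-fold.

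Enzymes of oxidative metabolism and redox defence also leaned to falls. Of 20 tested tricarboxylic acid cycle and citrate genes 1 rose and 7 fell, with a median of -0.14. Sucla2 (-0.76 ± 0.063), Acly (-0.50 ± 0.039), Ogdh (-0.40 ± 0.054) and Mdh1 (-0.33 ± 0.065) fell in the authors' deposited table, and the cytosolic dehydrogenase Idh1 rose by 0.49 ± 0.066. Of 46 tested genes of fatty acid oxidation 1 rose and 10 fell, and the carnitine palmitoyltransferases Cpt1a (-0.73 ± 0.081) and Cpt1b (-0.69 ± 0.091), which admit fatty acids to mitochondria, were among them in the authors' deposited table. Of 54 tested antioxidant and NRF2 target genes 3 rose and 16 fell. Sulfiredoxin, Srxn1, fell by 0.81 ± 0.085, Gclm, the modifier subunit for glutathione synthesis, by 0.55 ± 0.078 and peroxiredoxin Prdx1 by 0.41 ± 0.059 there, while the catalytic subunit Gclc rose by 0.22 ± 0.060 in the authors' deposited table.

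The respiratory chain itself changed little. Of 40 tested complex I genes 2 rose and 1 fell, and of 50 genes of complexes II to V 1 rose and 2 fell. The ATP synthase subunit Atp5a1 was the exception in size, falling by 0.58 ± 0.041 (DESeq2 adjusted p = 9.1e-44, taken from the authors' deposited table). The called share of both lists was below that of all tested genes, although their median expression, 1957 and 3071 normalized counts, lay in ranges where 24.7% and 31.3% of tested genes were called.

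Of 24 tested hypoxia-induced genes 8 rose and 1, the hexokinase Hk2 (-0.14 ± 0.051), fell in the authors' deposited table, with a median of 0.13. The hormones Stc1 (0.95 ± 0.16) and Adm (0.64 ± 0.14), the prolyl hydroxylase Egln3 (0.99 ± 0.21) and lactate dehydrogenase Ldha (0.42 ± 0.10) rose in the authors' deposited table. The factor that drives these genes, Hif1a, rose by 0.43 ± 0.044 at a mean of 34818 normalized counts (DESeq2 adjusted p = 2.26e-20, taken from the authors' deposited table). Of other glycolysis genes, Pgam1 rose by 0.36 ± 0.049, and Pfkfb2 fell by 0.21 ± 0.061 there.

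**Figure D5:**
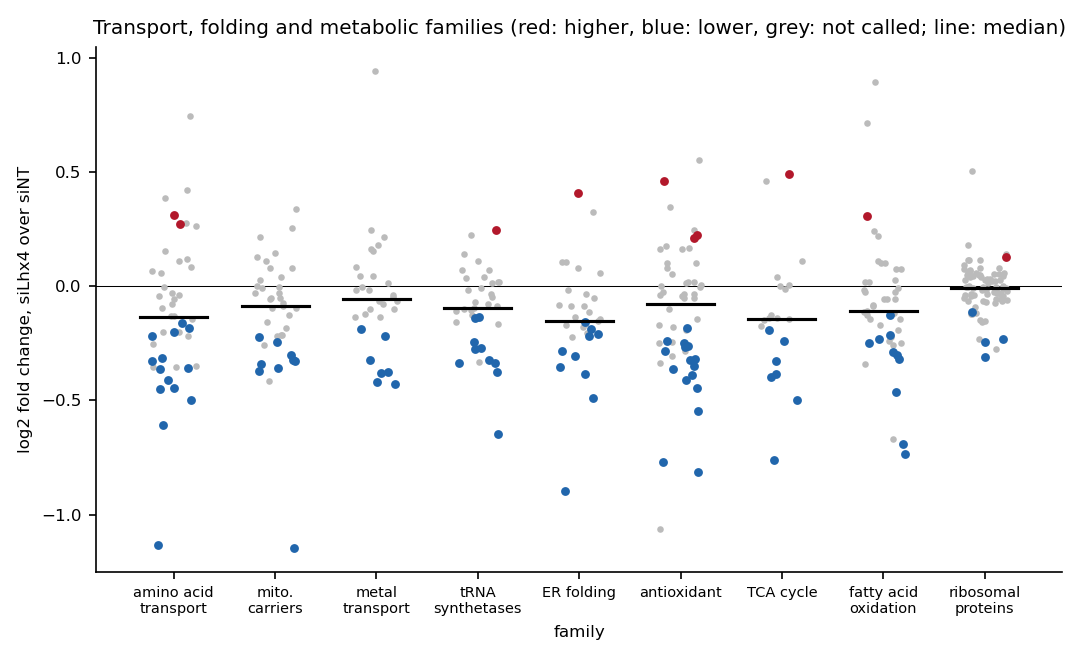
Log2 fold changes of siLhx4 over siNT (y axis) for the tested members of 9 transport, folding and metabolic families (x axis); each dot is a gene, red higher, blue lower, grey not called, and the line is the median. Medians run from -0.15 for endoplasmic reticulum folding genes to about 0 for ribosomal proteins, where 5 of 79 genes were called.

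Protein synthesis and folding were affected unevenly. Of 37 aminoacyl-tRNA synthetases, which charge transfer RNAs, 1 rose and 10 fell. Yars fell by 0.65 ± 0.056 (DESeq2 adjusted p = 2.01e-28), and Aars (-0.32 ± 0.043), Gars (-0.33 ± 0.049) and Lars (-0.34 ± 0.054) also fell in the authors' deposited table, the rise being that of the mitochondrial Lars2 (0.25 ± 0.088). Of 31 endoplasmic reticulum folding genes 1 rose and 10 fell, including the co-chaperone Dnajb11 (-0.90 ± 0.079), the chaperone Hyou1 (-0.49 ± 0.059) and the stress sensor Atf6 (-0.38 ± 0.065) there. Of 84 heat shock and J-domain genes 7 rose and 16 fell, with Hspa2 up by 1.00 ± 0.10 and Dnajb1 down by 0.61 ± 0.062 in the authors' deposited table. This list shares members with the endoplasmic reticulum folding list, among them Dnajb11, so their counts overlap. Of 79 cytosolic ribosomal protein genes 1 rose and 4 fell, among them Rps27 (-0.31 ± 0.089), at a median expression of 4905 normalized counts. Of 69 translation factors 4 rose and 3 fell, with Eif5a down by 0.59 ± 0.051 in the authors' deposited table.

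Nuclear transport receptors and nucleoporins held 3 rises and 10 falls among 54. The leading fall, that of Ipo4 by 1.94 ± 0.067 (DESeq2 adjusted p = 2.63e-180, taken from the authors' deposited table), stood beside those of Kpnb1, its adaptor Kpna1 (-0.46 ± 0.064) and the pore protein Nup62 (-0.48 ± 0.079). Kpna3 (0.25 ± 0.050) and the tRNA exporter Xpot (0.15 ± 0.052) rose there. Among lysosomal genes 5 of 51 rose and 10 fell, with the hydrolases Neu1 (-0.94 ± 0.11) and Ctsa (-0.55 ± 0.068), which form a complex, down with Tpp1, and the membrane proteins Lamp1 (0.47 ± 0.053) and Scarb2 (0.42 ± 0.071) up in the authors' deposited table. Of 37 autophagy genes 1 rose and 5 fell, with the cargo receptors Sqstm1 (-0.45 ± 0.053) and Optn (-0.43 ± 0.049) down there.

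Transcription factors changed in several classes. In the LIM-homeodomain group, which holds Lhx4 itself, 1 of 18 tested rose and 4 fell. Lhx3, the closest relative of Lhx4, was listed with a change of -0.316% (log2 SE 0.31) at a mean of 81.8 normalized counts (DESeq2 adjusted p = 0.996, taken from the authors' deposited table), and Lhx9 at 0.53 ± 0.28 (DESeq2 adjusted p = 0.195). Neither passed, and the SE of 0.31 would not have resolved a small change in Lhx3. Of 48 tested other homeodomain genes 10 rose and 5 fell. Pax6 (0.53 ± 0.11), Pax3 (0.50 ± 0.073) and Irx1 (0.41 ± 0.068) rose, and Bsx (-0.86 ± 0.060), Rax (-0.58 ± 0.13) and Tshz2 (-0.87 ± 0.17) fell in the authors' deposited table. Of 10 tested Sox factors 5 rose and none fell (0 lower at an unadjusted p under 0.05), including Sox9 (0.36 ± 0.090) and Sox11 (0.76 ± 0.21) there, and Sox9 is also on the astrocyte list.

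Of 29 tested immediate early genes, which cells switch on rapidly after stimulation, 8 rose and none fell (1 lower at an unadjusted p under 0.05). Arc (0.87 ± 0.16), Klf4 (0.65 ± 0.094) and Junb (0.39 ± 0.066) were among them in the authors' deposited table. Of 20 serum response and YAP target genes 6 rose and 1 fell, with Tgm2 (0.94 ± 0.16) and Actn1 (0.55 ± 0.073) up there. Nuclear receptors and coregulators held 8 rises and 5 falls among 45. Rxrg, which marks cones, fell by 0.84 ± 0.065 and the photoreceptor regulator Rorb by 0.37 ± 0.071, while the liver X receptor Nr1h3 rose by 0.47 ± 0.13 in the authors' deposited table.

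Among genes of the extracellular protease cascades, the calls were rises. Of 93 complement, coagulation and serpin genes listed, 38 were tested, 10 rose and none fell (1 lower at an unadjusted p under 0.05). The protease inhibitors Serpine2 (0.71 ± 0.088) and Serping1 (0.43 ± 0.069) and the plasminogen activators Plat (0.43 ± 0.091) and Plau (0.92 ± 0.24) rose in the authors' deposited table. Of the complement genes proper, the protease C1r rose by 0.54 ± 0.18 there. Several of these genes are also made by fibroblasts and astrocytes, whose markers are given above. Of 81 tested chemokines, cytokines and their receptors 5 rose and 5 fell, with the receptor Il17ra down by 0.53 ± 0.060 and Il11 up by 0.50 ± 0.10 there. Genes of apolipoproteins and lipoprotein receptors held 9 rises and 3 falls among 32, with the multifunctional endocytic receptor Lrp1 up by 0.39 ± 0.052 in the authors' deposited table.

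Some of the leading genes took other values when Bsx was silenced. The siBsx libraries were compared with the same siNT libraries, so the values are not independent, and 17.2% of tested genes were called in that comparison. In the authors' deposited tables Robo2 fell 2.63-fold with siLhx4 and stood at 0.72 ± 0.080 with siBsx (DESeq2 adjusted p = 2.24e-17), Prkar2b fell by 1.34 ± 0.078 and stood at 0.59 ± 0.077 (DESeq2 adjusted p = 5.19e-13), and Isl2 fell by 1.25 ± 0.075 and stood at 0.75 ± 0.071 (DESeq2 adjusted p = 7.47e-24). Bcat1 and Olfm1, which rose with siLhx4, stood at -0.64 ± 0.049 and -0.49 ± 0.059 with siBsx in the authors' deposited tables. These 5 genes therefore lay on opposite sides of the shared controls. Ipo4, Slc6a6 and Kpnb1, with the smallest p-values for siLhx4 after its target, stood at -0.03 ± 0.064, -0.24 ± 0.043 and -0.06 ± 0.042 with siBsx there. Cxcl14, Slc12a2 and Slc25a48 were close in both, at 1.28 and 1.45, 0.85 and 0.80, and -1.15 and -1.15 for siLhx4 and siBsx in the authors' deposited tables. Differences between the knockdowns were not tested here, and the genes of this paragraph were chosen after their values were seen.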

How the data were processed

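The members and gene lists were chosen with earlier results of these data known. RNA from 9 pooled libraries was sequenced, and 6 libraries (3 siNT, 3 siLhx4) enter the comparison. Per the submitters' processing notes, the build was rn6 and the tools were DESeq2 1.16.1, featureCounts (Subread 1.5.2), STAR 2.5.4a and bcl2fastq 2.20.0.422. The sources used here do not give the annotation, the strand setting or the handling of reads matching several genes. Values of protocadherins, tubulins, calmodulins, ribosomal proteins and other similar copies are therefore uncertain. The authors deposited mean normalized counts (signal values: counts over a size factor per library), log2 fold changes and p-values, unadjusted and Benjamini-Hochberg adjusted, for all genes, and normalized counts per library for 14 genes. Adjusted p-values are listed from a mean of 19.8 upwards. Per the file legends, the siBsx table also gives standard errors.

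Raw counts of all genes per library were not analysed here, so no model was refitted and calls use the adjusted p-values of the authors' DESeq2 run at 0.05. SEs for siLhx4 are the size of the log2 fold change divided by the standard normal value that its p-value implies, a step tested on simulated data. The p-value of Lhx4 is listed at 1e-200 beside an adjusted p of 0, so it has no SE. The 14 genes were compared by exact permutation of mean log2(normalized count + 1). Their values were whole reads at a tolerance of 1e-06 after multiplication by size factors of 0.761 to 1.46, with 342743 to 724771 reads per library over the 14 genes and 288 to 729 for the lowest gene. The main comparison did not pair libraries by replicate number, and whether the numbers mark a pairing is not known. There were 0 unused columns of values per sample.

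Genes were assigned to 120 lists by symbol, and 4757 tested genes fell in at least 1 list. After values were seen, 19 names that matched by spelling alone were removed. Lists are described by counts and medians, with no test. Named genes are those ranked 11 to 25 by size in each direction (mean of at least 50), the 8 largest changes in each direction at a mean of at least 5000, up to 4 called members per list and direction with the smallest adjusted p, and the 14 genes. Some genes that the rule names are not reported here. Members with roles that complete a described set were added after their values were seen. Summed marker levels were derived from the authors' means and fold changes. Alternatives were the threshold, the low-mean filter, centring, a t reference, symbols only, the pseudocount, leaving out each library, the replicate block and the removed names. Python 3.11.15, pandas 2.3.3, NumPy 2.4.6, SciPy 1.17.1 and matplotlib 3.10.9 were used.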

Additional observations from a re-analysis of the deposited data

How the results depend on the processing

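The counts of called genes kept within 1.5 times of 2626 (1200 higher, 1426 lower) under a threshold of 0.1 (3344), no filter on low means (2325 of 26851 genes), a mean of at least 100 (2635), centring on the median (2625) and genes with a symbol only (2504). At a threshold of 0.01 the total was 1817 and the genes higher numbered 769, down by more than 1.5 times, with 1048 lower. With a t distribution on 4 degrees of freedom replacing the normal distribution behind the DESeq2 p-values, 0 genes passed in total, 0 higher and 0 lower, while 2397 had an unadjusted p under 0.05. That alternative keeps the DESeq2 standard errors, which share dispersion across genes, and changes only the reference distribution. Lhx4 entered it with its p-value listed at 1e-200, which caps its statistic, so its failure to pass is no check of this alternative. A count of 0 past adjustment does not show that no gene changed. Of 658 named genes, 100 were no longer past the threshold at 0.01, 42 without a filter, 7 with centring and 658 with the t reference, and 0 reversed. Of 240 counts of higher or lower members per list, 69 moved by over 1.5 times at 0.01 and 3 with centring. Putting back the removed names, an alternative chosen after seeing the data, moved 0 of 12.

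For the genes with values per library, 14 of 14 had groups without overlap, which neither a pseudocount nor leaving out a library (14 to 14) can change, and which also fixes the paired differences at 1 sign in 14 with the replicate block, where the smallest possible p is 0.25. These alternatives therefore say nothing about stability. Same-numbered libraries had correlations of 0.19, -0.12 and -0.03 in their deviations over the 14 genes, and differently numbered ones of -0.31 to 0.16. With so few libraries and genes, these values cannot tell whether the numbers mark a pairing. A single library could not be left out of the comparison across all genes, since its table holds no values per library. Low means limit what could be called: the median SE was 0.45 (log2) for means under 50.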

Other observations

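The gene families of this paragraph were not described above. Most held calls near or below the share over all tested genes, which was 8.07% higher and 9.59% lower. Chromatin modifiers exceeded it for falls (13.3%) and interferon-induced genes for rises (16.1%). The chromatin modifiers' median mean was 2999 normalized counts, and their share of falls was not above that at like expression. Of all tested genes with means of 1000 to 3000 normalized counts 14.6% fell, and from 3000 to 10000 19.3%. Of 292 tested ubiquitin ligases and adaptors 25 rose and 26 fell, among them the ligase scaffold Cul3 (0.34 ± 0.055, log2 fold change with SE) and its adaptor Klhl12 (-0.43 ± 0.055) in the authors' deposited table. Of 267 Zfp and Znf genes 14 rose and 11 fell, led by a fall of Zfp84 by 0.67 ± 0.048 (DESeq2 adjusted p = 4.44e-42, taken from the authors' deposited table). Of 113 chromatin modifiers 7 rose and 15 fell, with the remodeller Smarca2 at -0.32 ± 0.056 in the authors' deposited table. Of 111 splicing factors 7 rose and 5 fell, and the neuronal RNA-binding protein Celf3 fell by 0.87 ± 0.057 (DESeq2 adjusted p = 5.16e-50, taken from the authors' deposited table). Of 28 ribosome biogenesis factors 0 rose (1 at an unadjusted p under 0.05) and 1 fell, Bop1 (-0.26 ± 0.059), in the authors' deposited table, where 27 major histocompatibility and antigen processing genes held 1 rise, that of the peptide transporter Tap1 (0.71 ± 0.18). Of 31 tested interferon-induced genes, a list that includes Tap1 and the immunoproteasome subunit Psmb8, 5 rose and none fell by DESeq2 (0 lower at an unadjusted p under 0.05), with a median of 0.49 and 28 of 31 above 0. In the authors' deposited table the other rises were those of Irf1 (0.68 ± 0.092), Oasl (0.33 ± 0.082) and Dtx3l.

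Of 218 tested genes taken by ciliary name patterns, which include all Ccdc and Ttc genes whether ciliary or not, 7 (3.21%) rose and 24 (11%) fell. Over all tested genes 8.07% rose and 9.59% fell, so the share of falls was near that of all genes. The list's median was -0.01, with 105 members above 0 and 113 below. The ciliary transport gene Bbs1 fell by 0.67 ± 0.10 and Nphp4 of the transition zone by 0.48 ± 0.080 in the authors' deposited table. Of 46 proteasome subunits 4 rose and 1 fell, and the rises included the immunoproteasome subunits Psmb8 (0.77 ± 0.25) and Psmb10 (0.80 ± 0.18) in the authors' deposited table. Of 37 tested folate, one-carbon and nucleotide synthesis genes 4 (10.8%) rose and 7 (18.9%) fell. Among enzymes of purine synthesis, Pfas (-0.42 ± 0.053) and Atic (-0.27 ± 0.062) fell, while Adss (0.197) and Adssl1 rose in the authors' deposited table. Tyms (0.64 ± 0.12) of thymidylate synthesis rose there too. Of 47 tested genes in the list of cytochrome P450 and aldehyde dehydrogenase genes 3 (6.38%) rose and 8 (17%) fell. The falls included those of Aldh1l2, Hsd11b1, Aldh18a1 and Akr1b1 (-0.296). The 3 rises were those of the retinoic acid-degrading Cyp26b1 (0.98 ± 0.28) and the oxysterol enzymes Cyp27a1 (0.90 ± 0.14) and Cyp7b1 (0.82 ± 0.28) in the authors' deposited table.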
